A study of Arabidopsis thaliana with 4 samples.

Results

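The most abundant transcripts of Arabidopsis thaliana rosette leaves were examined on 4 Affymetrix arrays of 1 colour, with 1 array per nutrient solution. They were chosen by signal, as the probe sets other than Affymetrix controls with a mean deposited signal of at least 2000 over the 4 arrays. A probe set is the group of short probes that reads 1 transcript. LHCB4.1, PSBY, PSBW, PSAE-1, PSAN and RCA were left out by name, which removed 8 of the 116 probe sets above that limit. The remaining 108 are 1.31% of the 8247 probe sets. The signal level chose them, so that they are bright is no finding, and the comparisons between solutions below are descriptions.

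Plants of ecotype Col-5 grew on agar medium until day 21 and then in hydroponics under constant light, and leaves were taken 28 h after a nutrient was withdrawn. The full solution held 0.25 mM KH2PO4 and 0.5 mM KOH. The solution without nitrate lacked calcium nitrate and received 4 mM extra calcium sulphate, although the listed full solution holds no nitrate salt either. How much nitrate the reference plants received is therefore not known. The solution without phosphate lacked KH2PO4 and received 0.125 mM extra K2SO4. The solution without potassium lacked KH2PO4 as well as KOH and received 0.27 mM extra Ca(H2PO4)2. Sucrose was present in the agar medium of all plants. The labels give growth stage 6.10, 24 °C and 80% humidity for all 4 samples. There was 1 array per solution, so no value has a replicate error, no difference was tested and no p-value is given. How many plants were pooled for an array is not stated.

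In a green leaf much of the messenger RNA serves the chloroplast. Nuclear genes encode the antenna proteins that bind chlorophyll, most small photosystem subunits and the enzymes that make chlorophyll, and their products are imported into the plastid. Transcripts for cell wall and secreted proteins, for protein synthesis and for protection against water loss can also be plentiful in rosette leaves. Nitrogen and phosphorus are building blocks of protein and nucleic acid, while potassium is the main cation that balances charge and sets turgor.

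The 108 abundant probe sets held a large part of the signal on each array. They made up 31.7% of the summed signal on the full-solution array, 31.8% without nitrate, 29.4% without phosphate and 25.5% without potassium. Their median signal was 3234 on the full-solution array, 3538 without nitrate, 3029 without phosphate and 2527 without potassium. The potassium array was thus the dimmest for this set and the nitrate array the brightest. The single brightest probe set, 15108_s_at, for which no gene is named, had signals of 11126, 8981, 8792 and 6194 on the arrays of the full solution and without nitrate, phosphate and potassium. In the same order, the signals of 15133_at were 9557, 8907, 7521 and 5295, and those of 16004_s_at were 7793, 7944, 6471 and 4772. The fifth brightest, 18085_r_at, had 6997, 6758, 6764 and 5314. The brightest named gene, AT1G07590, was the third by mean signal and was nearly flat in deposited signal, with 7263, 6986, 6926 and 6485. Its log2 ratio to the full-solution array without potassium was -0.16, but 0.44 with quantile normalization and 0.42 with loess centring. The gene name is that of the annotation and was not checked against the probes.

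Few of these probe sets could be named. The platform annotation paired 21 of the 108 (19.4%) with 1 gene, giving 20 genes, against 46.0% of all probe sets. It listed several genes for 2 and none for 85. An ending other than the plain one marks probes that may also match related transcripts or that missed the array's design rules, and 57.4% of the abundant probe sets had such an ending, against 24.3% of all. A signal in these may sum close relatives. At the lower limit, AT1G74470 entered with a mean of 2005.2, while VHA-C3 and a probe set of KIN2 stayed outside at 1999 and 1993.

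The leaf identity of the RNA could be checked on few markers. Of 13 leaf mesophyll markers the annotation named RCA and LHCB4.1, whose summed signal was 12928 with the full solution and 7960.0 without potassium. Of 5 root markers it named 2, both below the floor of 25.04 with the full solution and without nitrate or phosphate. Their summed signal was 3.0, 8.9 and 22.2 there and 393.9 on the potassium array, nearly all of it from BGLU21 (377.2). The other, AT5G66390, stayed below the floor on all 4 arrays, with 16.9 without phosphate and 16.7 without potassium. The 1 named flower and pollen marker lay below the floor on all 4 arrays, and none of the guard cell, vascular and seed markers was named. In whole leaves, fewer cells of a type and less RNA per cell cannot be told apart.

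The named genes fall into photosynthesis, the cell surface, stress protection, basic cell functions and a remainder. These roles were assigned with the values known. All signals below are given in the order full-solution, nitrate, phosphate, potassium, and log2 ratios are relative to the full-solution array.

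**Figure D1:**
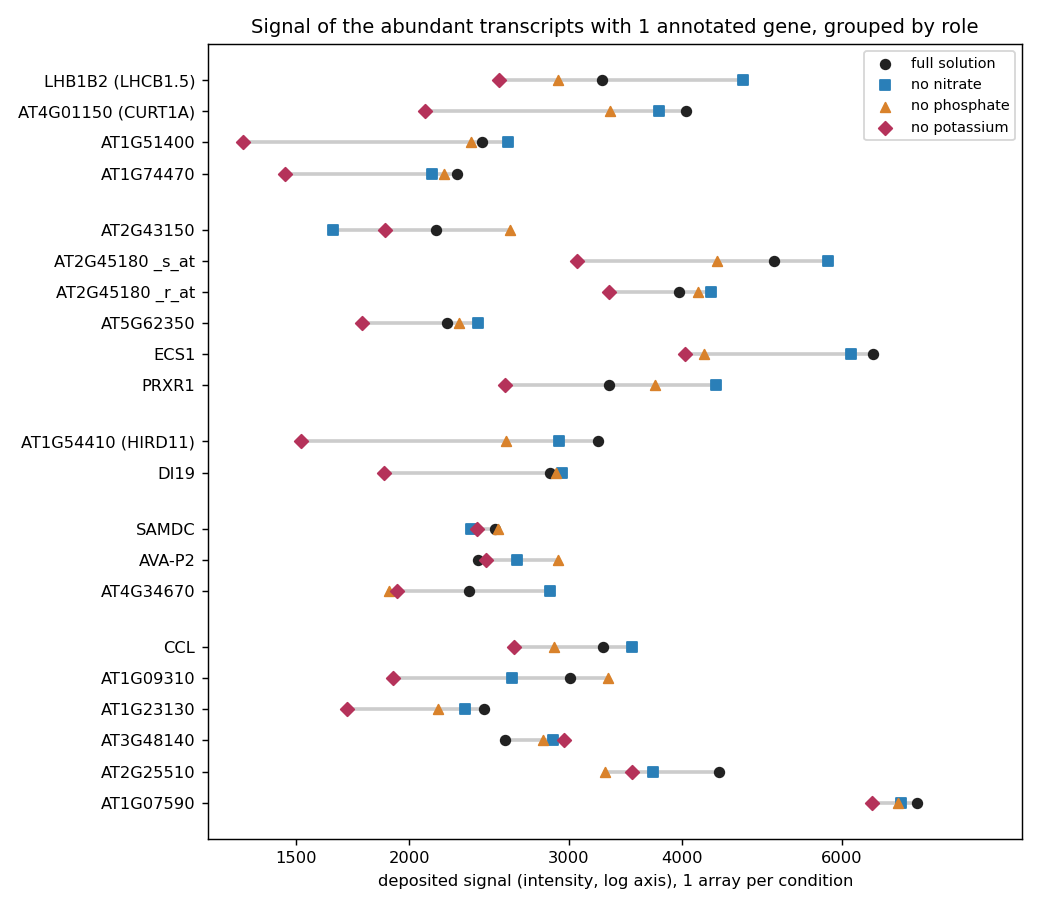
Deposited signal (log axis) of the 21 abundant probe sets with 1 named gene, 1 point per array, in blocks for photosynthesis, cell surface, stress, basic cell functions and others from top to bottom. Grey bars span the lowest to the highest array; the potassium point of AT1G54410 sits at 1520 against 3232 for the full solution, whereas the 4 points of SAMDC lie between 2343 and 2504.

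All 4 photosynthesis genes had their lowest signal on the potassium array, as did 71.3% of the 108 abundant probe sets. AT4G01150 encodes CURT1A, which bends the thylakoid membrane at the margins of grana, and had signals of 4040.4, 3771, 3332 and 2080.3. The potassium array was the low one, 1.94-fold below the full-solution array (log2 ratio -0.96). AT1G51400, a gene of a small photosystem II protein family, had 2405, 2569, 2340 and 1313, with 3 similar values and a potassium signal 1.83-fold lower (-0.87). AT1G74470 encodes geranylgeranyl reductase, which makes the phytol chain of chlorophyll, and had 2259, 2119, 2183 and 1460, 1.55-fold lower without potassium (-0.63). With quantile normalization and loess centring its ratio was -0.42 and -0.32, within 1.5-fold.

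The antenna gene LHB1B2 (LHCB1.5), whose product binds chlorophyll in the light-harvesting complex of photosystem II, behaved differently from these 3. Its signals were 3265, 4668, 2920.1 and 2513, so the nitrate array stood highest, 1.43-fold above the full-solution array, and the potassium array was lowest at a log2 ratio of -0.38. A second, dim probe set of LHB1B2 had 148, 182, 137 and 117, in the same order of arrays. The genes left out by name were those of the photosystems, the antenna and Rubisco activase. Their 8 probe sets had a median log2 ratio of -0.83 without potassium. All 8 were at least 1.5-fold lower there, where 6.83% of all probe sets and 14.6% of those above the floor on all arrays were. With quantile normalization and loess centring, 1 of the 8 was, and the medians were -0.40 and -0.36.

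The genes of the cell surface and the secretory route varied among themselves. ECS1, which encodes a cell wall protein, had signals of 6496, 6152, 4234 and 4029. The full-solution and nitrate arrays were high and the other arrays low, 1.53-fold lower without phosphate (log2 ratio -0.62) and 1.61-fold without potassium (-0.69). It is the only named gene past 1.5-fold in phosphate depletion, and with quantile normalization and loess centring its ratio there was -0.35 and -0.46, within that limit. AT2G45180, of the protease inhibitor and lipid transfer protein family, had 5053, 5798, 4375 and 3068 on one probe set and 3966, 4304, 4167 and 3322 on the other. The potassium array was lowest on both, 1.65-fold on the first and at a log2 ratio of -0.26 on the second. With quantile normalization and loess centring the first was at -0.15 and -0.25, within 1.5-fold, and the second at 0.25 and 0.20.

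PRXR1, a class III peroxidase gene, had 3327, 4366, 3738 and 2552, with the nitrate array highest (log2 ratio 0.39) and the potassium array lowest (-0.38). AT2G43150, an extensin-like gene of a proline-rich wall protein, had 2144, 1648, 2582 and 1882. Here the nitrate array was the lowest (-0.38) and the phosphate array the highest (0.27), the reverse of PRXR1 for nitrate. AT5G62350, of the invertase and pectin methylesterase inhibitor family, stayed between 1773 and 2381.

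The stress genes were AT1G54410 and DI19. AT1G54410 encodes HIRD11, a dehydrin, one of a group of hydrophilic proteins that accumulate when cells lose water. Its signals of 3232, 2927, 2559 and 1520 gave a 2.13-fold lower value without potassium (log2 ratio -1.09), the lowest ratio of any named abundant transcript. DI19, a drought-induced zinc finger gene, had 2860, 2946, 2905 and 1875, with 3 arrays alike and the potassium array 1.53-fold lower (-0.61). With quantile normalization and loess centring its ratio was -0.40 and -0.25, within 1.5-fold.

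No gene of basic cell functions reached 1.5-fold in any depletion. SAMDC, for the S-adenosylmethionine decarboxylase of polyamine synthesis, had 2489, 2343, 2504 and 2378. Its second probe set, outside the abundant set, was less flat, with 248, 241.3, 336.5 and 293.7. The log2 ratios of that probe set were 0.44 without phosphate and 0.24 without potassium. AVA-P2, for the proteolipid of the vacuolar proton pump, had 2383, 2634, 2920 and 2433, highest without phosphate at a log2 ratio of 0.29. AT4G34670, for ribosomal protein S3a of the small cytosolic subunit, had 2327, 2862, 1901 and 1939. Its second probe set, outside the abundant set, had 918, 867, 613 and 649. The nitrate array was above the full-solution array on the first and below it on the second, while the phosphate and potassium arrays were low on both.

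Of the remaining genes, AT1G09310, from a protein family of unknown function, had 3013, 2599, 3315 and 1919, 1.57-fold lower without potassium. This ratio (-0.65) was -0.42 and -0.28 with quantile normalization and loess centring, within 1.5-fold. CCL, a light-regulated gene of the circadian network, had 3275, 3522, 2891 and 2613. AT1G23130 had 2422, 2306, 2155 and 1710.0, a log2 ratio of -0.50 without potassium. AT2G25510, of unknown function, was lowest without phosphate, with 4394, 3717, 3288 and 3525. AT3G48140, a B12D family gene, was the named gene with the highest ratio without potassium, at 0.22, with 2552, 2880, 2809 and 2964.

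The potassium array was the lowest of the 4 for most abundant transcripts. It held the lowest signal for 77 of the 108 (71.3%), against 33.5% of the 3545 probe sets above the floor on all arrays. The nitrate array held the highest signal for 53 (49.1%), against 30.8%. For the next brightest 167 probe sets, with mean signals from 1000 to 2000, these shares were 44.9% and 35.3%, between those of the abundant and of all probe sets.

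**Figure D2:**
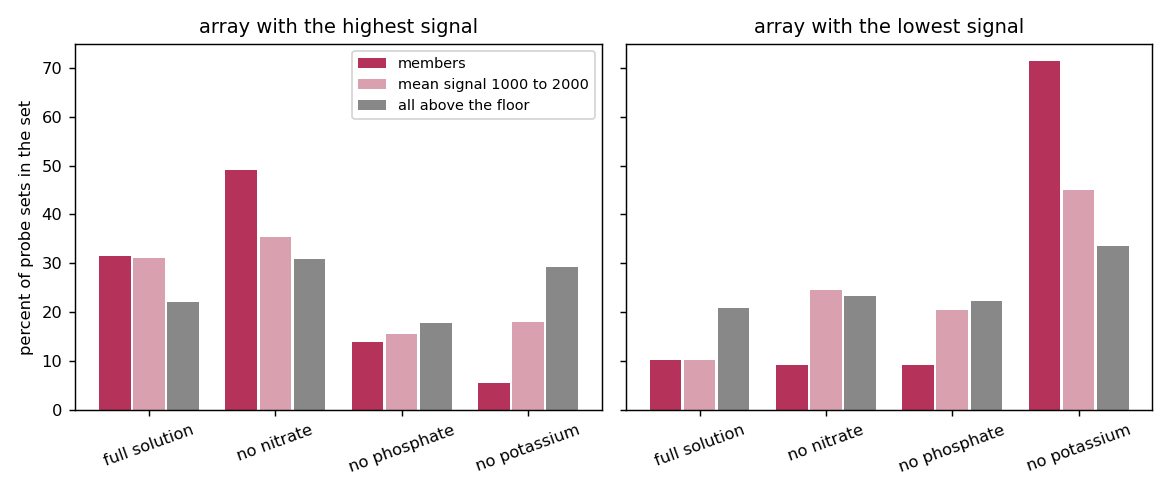
Share of probe sets whose highest (left) or lowest (right) signal fell on each array, in percent, for the 108 abundant probe sets, the 167 with mean signals of 1000 to 2000 and the 3545 above the floor on all arrays. The potassium array holds 71.3% of the lowest signals of the abundant set and 5.56% of the highest.

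After nitrate withdrawal the abundant transcripts stayed close to the full-solution array. Their median log2 ratio was 0.07, with 44 of 108 below 0, against 46.9% of the probe sets above the floor. A limit of 1.5-fold was used, since 2-fold was rarely reached in this set. At this limit 2.24% and 2.97% of all probe sets were lower and higher, and 4.54% and 5.61% of those above the floor. Of the 108, 2 were lower and 1 was higher, so 105 lay within 1.5-fold. The lower ones were 13212_s_at, with 3022, 1314, 2441 and 2263, and 17095_s_at, with 4838, 3119, 3931 and 3122, neither with a named gene. The higher one, 12763_s_at, had 2447, 5163, 2747 and 1776, a 2.11-fold higher nitrate signal that no other array approached. At 2-fold, 1 was lower and 1 higher, where 0.57% and 0.424% of all were. No named gene reached 1.5-fold, and their log2 ratios ran from -0.38 (AT2G43150) to 0.52 (LHB1B2).

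After phosphate withdrawal the abundant transcripts were slightly lower with the deposited scaling. The median log2 ratio was -0.15, with 75 of 108 below 0, against 53.2% of the probe sets above the floor. This median was 0.00 with quantile normalization and loess centring, and 0.03 against the mean of the other 3 arrays. At 1.5-fold with the deposited scaling, 6 (5.56%) were lower and 1 (0.926%) was higher, where 3.43% and 5.09% of all probe sets were. Among the probe sets above the floor, where all 108 lie, these shares were 6.91% and 9.31%. At 2-fold, 0 of the 108 were lower and 0 higher, where 0.715% and 1.86% of all were. ECS1 was the named gene among the 6. The lowest ratio was that of 13213_s_at, with 7889.6, 7092, 4455 and 3995 and a log2 ratio of -0.82, and 13214_at followed with 5242, 6075, 3139 and 4089 (-0.74). The higher one, 12742_at, had 1805, 2035, 2934 and 2449.6, with the phosphate and potassium arrays above the others.

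After potassium withdrawal most abundant transcripts were lower. Log2 ratios had a median of -0.46 (1.37-fold lower), with quartiles of -0.71 and -0.26, and 93 of 108 were below 0, against 52.8% of the probe sets above the floor. At 1.5-fold, 41 (38.0%) were lower and 2 (1.85%) higher, where 6.83% and 7.49% of all probe sets were. Among the probe sets above the floor these shares were 14.6% and 12.9%, and 27.5% and 10.8% for mean signals of 1000 to 2000. At 2-fold, 6 of the 108 were lower and 0 higher, where 1.71% and 3.65% of all were. The named genes past 1.5-fold were AT1G54410, AT4G01150, AT1G51400, AT2G45180, ECS1, AT1G09310, AT1G74470 and DI19, each of them lower. With quantile normalization 3 of these 8 stayed past it, AT1G54410, AT4G01150 and AT1G51400, and with loess centring only AT1G54410 did.

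The 87 probe sets without 1 named gene spanned a wider range without potassium than the 21 with 1, as a larger group tends to. The quartiles of their log2 ratios were alike, at -0.71 and -0.26 against -0.65 and -0.26. The lowest ratio was that of 16449_s_at, with 5028, 4860, 4689 and 2108, a log2 ratio of -1.25 and a low signal on the potassium array alone. The next, 14726_s_at, had 5527, 4341, 4374 and 2472 (-1.16). Against the general direction, 16080_f_at had 1863, 1669, 2625 and 3040 (0.71) and 16031_at had 1648, 2253, 1847 and 2535 (0.62), with the potassium array highest in both.

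**Figure D3:**
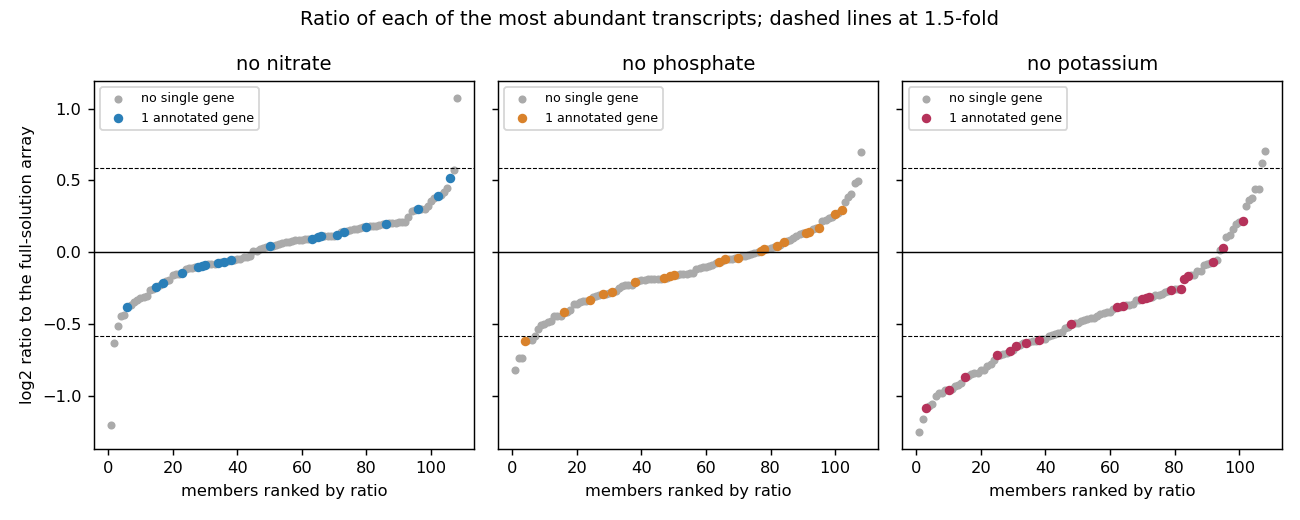
Log2 ratio of each of the 108 abundant probe sets to the full-solution array, ranked within each depletion; coloured points have 1 named gene, grey points do not, and dashed lines mark 1.5-fold. The nitrate points centre near 0 (median 0.07), while 93 of the 108 potassium points lie below 0 with the deposited scaling shown.

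The size of the potassium difference grew with signal level. Among abundant transcripts the median log2 ratio was -0.31 for the 51 with mean signals under 3000, -0.48 for the 37 between 3000 and 5000, and -0.64 for the 20 from 5000 upwards. All 20 of the last group were below 0 and 14 were at least 1.5-fold lower. Below the abundant set, the median was -0.21 for mean signals of 1000 to 2000 and -0.07 for 500 to 1000. In phosphate depletion the same 5 levels gave -0.23, -0.18, -0.02, -0.09 and -0.01 from the brightest downwards, wherein the order is not kept between the 2000 to 3000 and the 1000 to 2000 levels. No such order was seen for nitrate, whose medians at these levels lay between -0.02 and 0.09.

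The shift of the set as a whole differed between scalings. Median centring kept it, with a median of -0.47 for potassium, 43 lower and 2 higher. Quantile normalization and loess centring, which by construction bring bright probe sets of all arrays to a common level, gave medians of -0.08 and -0.05 for potassium and of 0.00 for phosphate under both. With them, 12 and 8 abundant probe sets were at least 1.5-fold lower without potassium, and 7 and 8 were higher. Of all 8247 probe sets, 667 and 456 were lower under these scalings, and 532 and 669 were higher. Of the 3545 above the floor on all arrays, 609 and 413 were lower, and 392 and 502 were higher. Among the calls of abundant probe sets, the share of lower was 95.3% with the deposited scaling, 63.2% with quantile normalization and 50.0% with loess centring. Loess centring centres each signal level and so sets a near-even split by its construction. A change of the brightest transcripts in the leaf and a difference in the response of the array at high signal cannot be told apart with 1 array per solution.

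**Figure D4:**
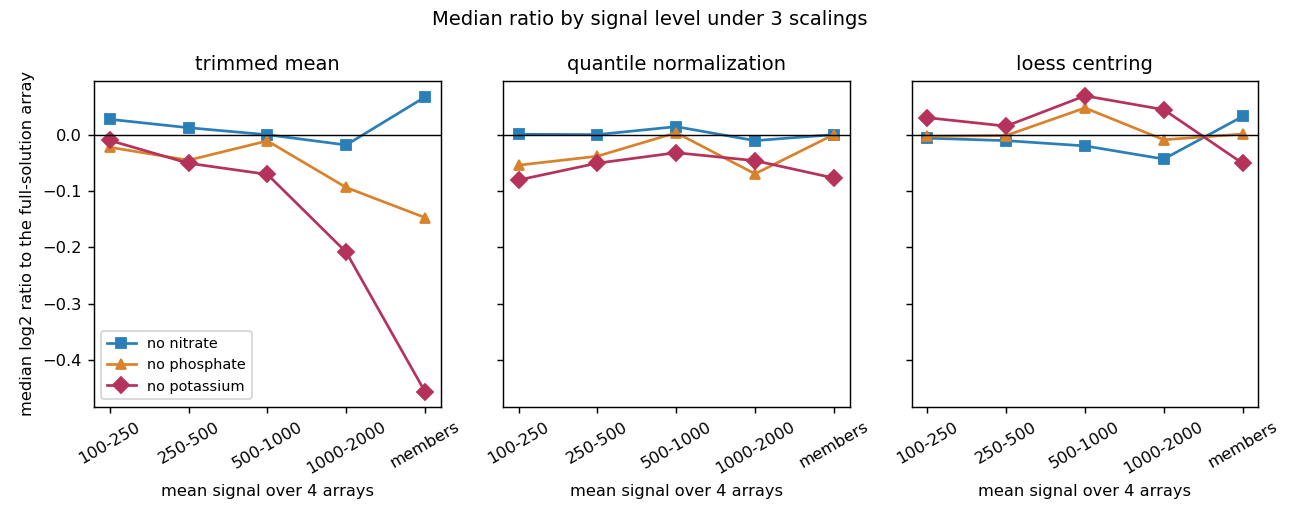
Median log2 ratio to the full-solution array by mean signal over the 4 arrays, for the deposited trimmed-mean scaling, quantile normalization and loess centring; the last point of each line is the 108 abundant probe sets. The potassium line drops to -0.46 in the first panel and ends at -0.08 and -0.05 in the others.

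Some differences were seen under each of the deposited, quantile and loess scalings. Under all 3 scalings 8 were at least 1.5-fold lower without potassium, among them AT1G54410 (log2 ratios -1.09, -0.89 and -0.74 with deposited, quantile and loess scaling), and 2, 16031_at and 16080_f_at, were at least 1.5-fold higher. The share of all probe sets past the limit under all 3 was not counted. Whether the 8 and the 2 exceed it is therefore not known. The 2 higher calls could hardly be lost, since both other scalings raised the potassium ratios of the abundant set. For 16031_at 0.62 became 0.95 and 0.96, and for 16080_f_at 0.71 became 1.12 and 1.07. CURT1A (AT4G01150) had -0.96, -0.67 and -0.55, and AT1G51400 had -0.87, -0.64 and -0.56. The 4 photosynthesis genes had medians of -0.75, -0.53 and -0.43, and the 3 genes of basic cell functions had -0.07, 0.17 and 0.31. The roles were assigned with these values known, so the difference between the groups is a description. Single genes came close, with LHB1B2 at -0.38 and AT4G34670 at -0.26 with the deposited scaling, and the second probe set of AT4G34670 was at -0.50. ECS1, at -0.69, had -0.09 and -0.17 with the other scalings, and the 5 cell surface genes had medians of -0.38, -0.08 and 0.02, so that their direction without potassium turned with loess centring. Of the 21 single-gene probe sets, 10 changed sign without potassium under at least 1 of these scalings: AT1G07590, AT2G25510, AT2G43150, SAMDC and the second probe set of AT2G45180 under both, and LHB1B2, PRXR1, CCL, AT4G34670 and AT5G62350 with loess centring. Of the 8 past 1.5-fold, 0 changed sign, but 5 lost the call with quantile normalization and 7 with loess centring.

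The arrays were also compared directly, without the full-solution reference. The potassium array was at least 1.5-fold below the nitrate array for 48 abundant probe sets and above it for 2, where 8.44% and 8.05% of all probe sets were. It was below the phosphate array for 23 and above it for 0, where 4.86% and 5.53% were. The phosphate array was below the nitrate array for 10 (9.26%) and above it for 4 (3.70%), where 4.6% and 5.35% were. Among the probe sets above the floor, the shares in the same order were 17.7% and 14.3%, 9.93% and 9.34%, and 9.22% and 10.1%. These comparisons share arrays with those above and are not independent of them.

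Genes of related pathways that were too dim for the abundant set were read from 13 lists with 228 members. The annotation named 10 of them, in 6 lists. LHB1B2 and CCL were the 2 that belong to the abundant set, and 7 lists had no gene matched by symbol: photosystem subunits, electron carriers with the chloroplast ATP synthase, cytosolic ribosomal proteins, protein turnover, metallothioneins with redox enzymes, lipid transfer with wall proteins, and aquaporins. These gaps partly reflect how the lists were built. AT4G34670, a ribosomal protein gene, carries only a locus name and was not matched. The lists did not hold the genes left out by name, and the photosystem list did not hold AT1G51400.

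Named genes of carbon fixation and photorespiration, and a further antenna gene, were read at lower signal levels. PRK, for the kinase that regenerates the acceptor of carbon dioxide in the Calvin cycle, had 1559, 1286, 1550.0 and 858. SBPASE, for a phosphatase of that cycle, had 525, 449, 414 and 310.0. HPR, for the hydroxypyruvate reductase of photorespiration, had 1941, 1411, 1598 and 1151, and the antenna gene LHCB4.3 had 173, 126, 134 and 106. The potassium array was lowest for each of the 4. Their log2 ratios without potassium were -0.86, -0.76, -0.75 and -0.71 with the deposited scaling and -0.64, -0.68, -0.48 and -0.67 with loess centring. The cold list had COR15B, COR47 and KIN2 named, with a median log2 ratio of 0.43, 0.52 and -0.04 without nitrate, phosphate and potassium. These genes did not move alike. COR15B was at 1.38 without nitrate and 1.18 without phosphate. The probe sets of KIN2 were at 0.63 and 0.24 without nitrate and at 0.50 and 0.54 without phosphate. Those of COR47 were at -0.22 and 0.06 without nitrate and at -0.38 and -0.53 without phosphate. Without potassium COR15B was at -0.57, KIN2 at 0.18 and -0.04, and COR47 at 0.01 and -0.09. THI2.1, the 1 named gene of the myrosinase and defence list, was not above the floor on all arrays.

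Measures of array and RNA quality are given beside these results. The ratio of the 3' to the 5' ubiquitin control was 3.16, 3.36, 2.75 and 2.67 in the order used above, and that of the GAPDH control was 2.36, 1.46, 1.26 and 2.02. The 9 spiked bacterial and phage controls had median ratios to the full-solution array of 0.748, 0.498 and 0.797 on the nitrate, phosphate and potassium arrays. Background averaged between 49.06 and 52.95, and the full-solution array had 312 masked cells against 0 on the others, per the labels. Their part in the lower signals of abundant transcripts was not tested, and neither was that of the BGLU21 signal on the potassium array.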

How the data were processed

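The authors deposited linear intensity values, 1 signal per probe set and array, for biotin-labelled RNA on 4 arrays. The expression algorithm is not given in the sources used here. From the values, the mean after trimming 2% at each end was 100.1 to 100.2 on each array, so the deposited intensity values had been scaled before deposit. Signals were brought to the common trimmed mean T (100.2), raised to 0.25 T (25.04) where below it, and then put on the log2 scale with pandas 2.3.3, and ratios to the full-solution array were taken. All 108 abundant probe sets lay above the floor on all arrays. With 1 array per group no test was possible, and the number of arrays limits the precision. As a stand-in for error, ratios of probe sets of the same gene spread over a median of 0.27, 0.24 and 0.30 log2 units for nitrate, phosphate and potassium. This spread does not hold the variation between plants or between arrays.

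Gene names came from the platform annotation, updated through Entrez identifiers in the TAIR10.1 gene table, which matched all 21 single-gene abundant probe sets. Each of these is named. Signals are given for those past 1.5-fold, for the 5 brightest and, per depletion, for at most 2 unnamed probe sets at each end. Groups follow the written treatments, since title and source name of the phosphate-depleted sample differ. The members, gene lists and limits were chosen with earlier results of these data known. Alternatives were quantile normalization, loess centring (span 0.4, statsmodels 0.14.6), median centring, a pseudocount of 16, another reference and other rules for the set. The ratio calculation was tested on simulated data. Coordinates and sequences were not used here.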

Additional observations from a re-analysis of the deposited data

Results flagged for a closer look

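The control probe set for 25S ribosomal RNA, which enters no comparison above, had a signal of 265.5 on the nitrate array against 168.5 on the full-solution array, 1.58-fold higher, and 82.5 and 251.2 on the phosphate and potassium arrays. It was singled out as a signal outside the measured transcripts that exceeded the reference array by at least 1.5-fold. Each group holds 1 array, so no spread within a group was examined.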

How the results depend on the processing

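The median ratio of the abundant probe sets without potassium (-0.46) was -0.077 with quantile normalization and -0.051 with loess centring. Under the other alternatives it moved by less than the spread between probe sets of a gene, as did the nitrate and phosphate medians under all of them. For nitrate and phosphate this spread (0.27 and 0.24) is larger than the medians themselves (0.07 and -0.15), so a fall to 0 does not count as moved. Without phosphate, 75 of 108 were below 0 with the deposited scaling, 52 with quantile normalization and 54 with loess centring. The counts past 1.5-fold moved more. For potassium, the 41 lower became 12 with quantile normalization, 8 with loess centring, 27 where each array had to reach 2000, and 20 with plain endings only. The 2 higher became 7, 8, 0 and 1 in the same order, 1 against the mean of the other 3 arrays, and 7 and 0 at member limits of 1500 and 3000. For phosphate, the 6 lower became 0 with quantile normalization, 3 with loess centring, 1 against the other arrays and 2 with plain endings, and the 1 higher became 3 with loess centring, 0 against the other arrays, 6 and 0 at limits of 1500 and 3000, and 0 where each array had to reach 2000. For nitrate, the 2 lower became 1 with quantile normalization, against the other arrays, at a limit of 3000 and where each array had to reach 2000, 7 at a limit of 1500 and 0 with plain endings. The 1 higher became 6 against the other arrays, 2 at a limit of 1500, and 0 where each array had to reach 2000 and with plain endings. Stricter rules keep fewer probe sets by construction. Of the 46 with plain endings, the 20 lower without potassium are 43.5%, against 38.0% of the 108. The median log2 ratio over these 46 was -0.54 without potassium, against -0.46. The cause of the changed counts was otherwise not tested. Of the 63 ratios of named genes, 21 moved by more than the same-gene spread with loess centring and 11 each with quantile normalization and against the mean of the other 3 arrays. Of the 8 past 1.5-fold without potassium, 0 changed sign, 3 kept the call with quantile normalization and 1 with loess centring. No paired analysis was possible because each group holds 1 array, and for the same reason no array could be left out.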

Other observations

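The control probe sets for GAPDH, an enzyme of glycolysis often used as a reference gene, lie outside the abundant set because Affymetrix controls were excluded. The 3' probe set had signals of 2064, 402, 475 and 2384 with the full solution and without nitrate, phosphate and potassium, 5.14-fold lower without nitrate. The middle one had 2967, 1003, 1708 and 3487, and the 5' one 874, 275, 376 and 1181. All 3 were lower without nitrate and without phosphate and higher without potassium. The 3' actin control had 2484, 1998, 2310.1 and 2069, and the 3' ubiquitin control 7240.1, 4866, 6601 and 5308, both lowest without nitrate.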
